A study of Mus musculus with 54 samples.

Results

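The comparison set 3T3-L1 cells kept in 0.5% DMSO for 24, 36 and 48 h (3 arrays) against untreated 3T3-L1 cells undergoing normal differentiation at the same times (3 arrays). These 6 arrays, chosen by sample title, are part of a series of 54 arrays, with 18 times from 0 to 288 h in each of 3 arms and 1 array per arm and time. The third arm, 2 µM prieurianin (a limonoid from plants), was set beside them at the same 3 times (3 arrays), because it is taken to carry the same solvent, although the labels do not name its solvent. The cells are a mouse preadipocyte line in the labels, and no genetic change separates the arms. The labels do not say whether each time was a separate culture, nor when each arm received a differentiation stimulus.

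DMSO is a small polar solvent that crosses membranes and is used to bring water-insoluble compounds into culture medium. 3T3-L1 cells are fibroblast-like until they are induced, when the early factors C/EBPβ and C/EBPδ and the glucocorticoid receptor act before PPARγ and C/EBPα, which then switch on genes of fatty acid binding, lipid storage and adipokine secretion. A vehicle control against untreated cells asks which transcripts differ with the solvent alone as that programme starts.

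Levels are given as log2(value + 16) of quantile-normalised probe intensity, where each gene is read through its brightest probe, and differences are on this scale, which understates changes of dim genes. A rise or a fall means higher or lower than the untreated array of the same time, not a change over time. Each value after ± is a standard error from limma, fitted to the 51 arrays after 0 h with time as a block and the arm effect taken separately at 0.25 to 3 h, 5 to 15 h, 24 to 48 h and 96 to 288 h. With 1 array per arm and time, the 3 times stand in for replicates, so each p-value reflects how much an arm difference varied from time to time, which may be technical, and neighbouring times are not independent. Fewer cells expressing a gene and less RNA per cell cannot be told apart in such samples.

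At 24 to 48 h the labelled cell type could be read from its markers in all 3 arms. Over the 9 arrays Dlk1 ran from 15.28 to 15.86, Thy1 from 13.71 to 14.29, Pdgfra from 12.99 to 14.20 and Col1a1 from 12.78 to 13.89, against a median of 9.44 over all genes tested. Adipoq ran from 5.68 to 10.65 over the same arrays. Summed linear levels of 6 marker lists for other cell types overlapped between the DMSO and untreated arrays in 5 of them. The exception was neuron and glia (6 genes tested), at 1287 to 1635 in untreated and 1727 to 2788 in DMSO arrays, with 0 of its genes called. Defining markers such as Myod1, Ptprc, Cdh5, Cdh1 and Gfap were too dim to be tested. The median intensity of the arrays as deposited was 98 to 128 in the untreated, 127 to 192 in the DMSO and 95 to 141 in the prieurianin arm, so the DMSO arrays were the brighter ones before scaling. The part of this in the results was not tested, other than by changing the scaling.

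DMSO-treated cells differed from untreated cells in many transcripts at 24 to 48 h, most by little. Of 12792 genes tested, 1205 (9.42%) passed an adjusted p of 0.05, of which 651 (5.09%) were higher with DMSO and 554 (4.33%) were lower. The rises were larger than the falls: 198 genes (1.55%) were over 2-fold higher and 15 (0.117%) over 2-fold lower. Without regard to the test, the 3 DMSO arrays lay entirely above the 3 untreated arrays for 1325 genes (10.4%) and entirely below them for 1237 (9.67%). The count rested on the treatment of time and on single times: it was 546 without the time block, 651 without 24 h, 491 without 36 h and 88 in a fit of the 6 arrays alone. It was higher at 1649 with the DMSO and untreated arrays alone and 1620 without 192 h, where 837 were lower. The balance of directions rested on the scaling, with 54% of calls higher as reported, 14.6% after median centring, which moved the median of all genes from -0.04 to -0.32, and 84.9% in the values as deposited, where 437 genes passed.

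Most of the rises passed as shared in the prieurianin arm, while most of the falls were undecided. A change was counted as shared where prieurianin differed from untreated in the same direction at 3 of 3 times with its own adjusted p under 0.05. It was counted as not shared where prieurianin differed from DMSO with an adjusted p under 0.05 in the opposite direction and its difference from untreated did not pass, and as undecided otherwise. On this rule 413 of the 651 rises (63.4%) were shared, 2 were not and 236 were undecided, while 138 of the 554 falls (24.9%) were shared, 13 were not and 403 were undecided. By the mean difference alone, 647 of the rises and 539 of the falls had the same sign in prieurianin. At 3 of 3 times 598 of the rises and 427 of the falls did. The median rise was 0.80 in DMSO and 0.65 in prieurianin, and the median fall was -0.58 in DMSO and -0.36 in prieurianin. The genes were chosen for passing with DMSO, which favours large DMSO values, so these medians do not compare the arms evenly. The DMSO and prieurianin differences use the same 3 untreated arrays, so a deviation of those arrays would appear in both. Likewise, a deviation of the 3 DMSO arrays would give both a call and the label of not shared. Over all genes, prieurianin minus untreated called 676 higher (5.28%) and 360 lower (2.81%). Of all called genes 551 (45.7%) were shared, and this count was 333, 147 and 253 without 24, 36 and 48 h, and 115 after median centring.

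**Figure D1:**
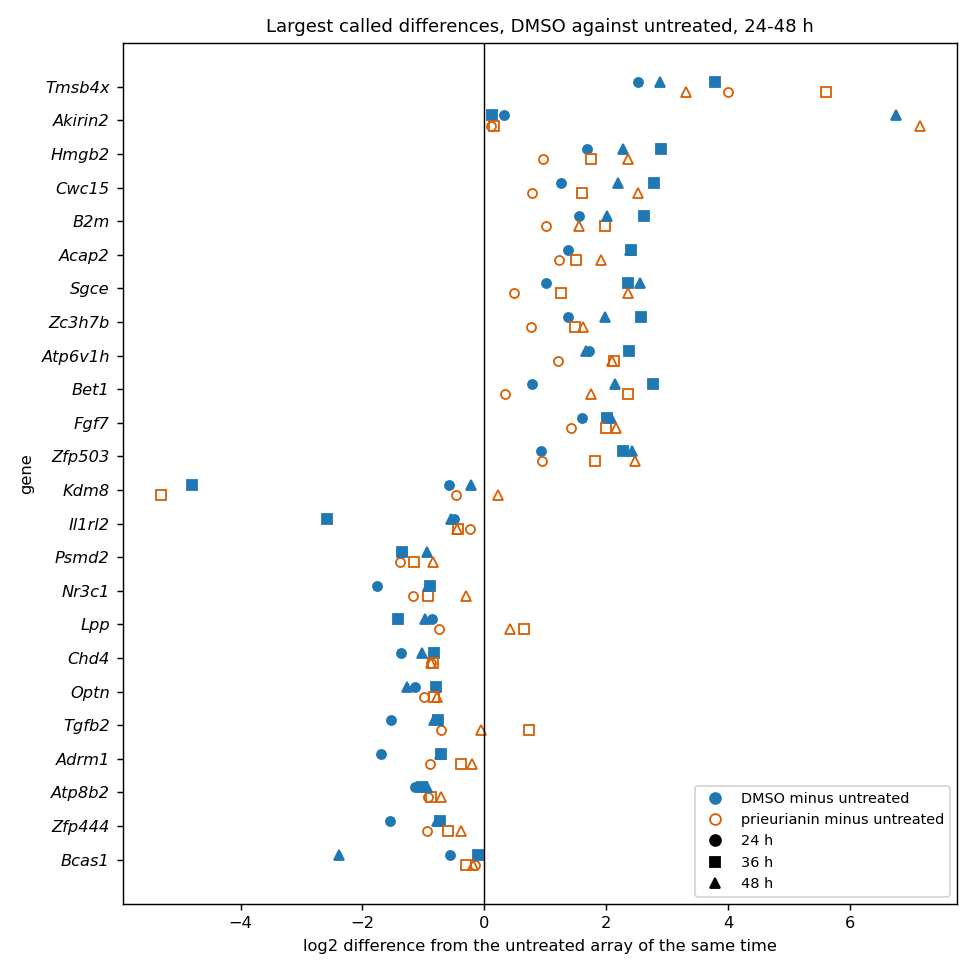
Log2 difference from the untreated array of the same time (x axis, log2 units) for the 12 largest rises and 12 largest falls (y axis), in DMSO (filled) and prieurianin (open), with 1 point for each of 24 h (circle), 36 h (square) and 48 h (triangle). The DMSO points of Akirin2 and Kdm8 are set by 1 time each, while those of Hmgb2, B2m and Atp6v1h lie apart from 0 at all 3 times, and prieurianin lies beside DMSO for all 12 rises but near or above 0 for Tgfb2 and Lpp at 36 and 48 h.

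The 12 largest rises, between 3.66-fold and 8.34-fold, came from unlike processes: actin binding, chromatin, splicing, antigen presentation and membrane traffic. Of these, 11 were shared by the prieurianin arm. The 3 DMSO arrays lay above the 3 untreated ones for 11, against 10.4% of all genes. The genes were chosen for large differences of the same sign at 3 of 3 times, which favours this. At 0.25 to 3 h 8 of the 12 were already called, against 3.21% of all genes called higher. At 5 to 15 h 11 were (5.36% of all genes), and at 96 to 288 h 5 were (3.18%). None had the same sign at 0 h, when 55.2% of all genes were above 0. Untreated levels dropped between 0 and 0.25 h, as for Cwc15 (9.38 to 6.56) and B2m (14.39 to 12.73). The drop was small for Akirin2 (12.18 to 12.13). For 7 of the 12 the call held under every alternative setting run.

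Tmsb4x encodes thymosin beta-4, which binds actin monomers, and had the largest rise. Its level was 6.78, 5.17 and 6.19 in untreated cells at 24, 36 and 48 h, 9.30, 8.94 and 9.07 with DMSO, and 10.77, 10.77 and 9.49 with prieurianin. The untreated arrays were low at all 3 times and the prieurianin arrays were above the DMSO arrays at each. The difference was 3.06 ± 0.63 (adjusted p = 0.00246) for DMSO and 4.30 for prieurianin, so the change was shared.

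Hmgb2, a high-mobility group protein that bends DNA in chromatin, was at 10.60, 8.49 and 8.84 in untreated cells at the 3 times, 12.29, 11.39 and 11.11 with DMSO, and 11.56, 10.23 and 11.20 with prieurianin. The lowest DMSO array exceeded the highest untreated one. The rise was 2.29 ± 0.37 (adjusted p = 0.000190), and it was shared, with 1.69 in prieurianin. Cwc15, a spliceosome-associated protein, rose by 2.07 ± 0.38 (adjusted p = 0.000734) and was shared at 1.64.

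Acap2, an activator of the GTPase activity of Arf6 at endosomes, was at 7.71, 7.08 and 6.94 in untreated cells, 9.08, 9.48 and 9.33 with DMSO and 8.94, 8.58 and 8.85 with prieurianin. Atp6v1h, a subunit of the proton pump that acidifies lysosomes, was at 8.70, 7.58 and 7.88 in untreated cells, 10.42, 9.96 and 9.56 with DMSO and 9.91, 9.71 and 9.98 with prieurianin. For both genes all 6 treated arrays lay above the 3 untreated ones. The rises were 2.05 ± 0.32 for Acap2 (adjusted p = 0.000172) and 1.92 ± 0.27 for Atp6v1h (adjusted p = 7.81e-05), and both were shared. Bet1, a SNARE of transport from the endoplasmic reticulum to the Golgi, rose by 1.90 ± 0.31, from untreated levels of 4.79 to 6.56, and was shared at 1.48.

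The other large rises were Zc3h7b, a zinc finger protein (1.97 ± 0.24, adjusted p = 1.56e-05), Fgf7, a growth factor that fibroblasts secrete for epithelial cells (1.90 ± 0.40), and Zfp503, a zinc finger protein (1.87 ± 0.42). All of these were shared, at 1.29, 1.86 and 1.75. Sgce, the imprinted epsilon-sarcoglycan gene, rose by 1.97 ± 0.44 and was undecided, because prieurianin minus untreated (1.37) missed the threshold (adjusted p = 0.0528). The calls of Sgce and Zfp503 were lost without 36 h and without 48 h, at adjusted p values of up to 0.0650 and 0.0674, and that of Fgf7 without the time block. Akirin2, a nuclear protein required for the import of proteasomes into the nucleus, had a difference of 2.40 ± 0.70 that rested on 1 array: untreated cells were at 12.02, 11.86 and 4.82, and every DMSO and prieurianin array was between 11.56 and 12.35. Its call was lost without 48 h.

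The 12 largest falls were smaller, between 2.02-fold and 3.64-fold. Already at 0 h 11 of the 12 had the same sign between the DMSO and untreated arrays, when 55.2% of all genes were above 0. Of these falls 5 were shared by prieurianin, 6 were undecided and 1 was not shared. Only Psmd2 kept its call under every alternative setting run.

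Psmd2 encodes a base subunit of the regulatory particle of the proteasome. It was at 11.21, 10.76 and 10.34 in untreated cells, 9.87, 9.41 and 9.41 with DMSO and 9.83, 9.61 and 9.51 with prieurianin. All treated arrays lay below all untreated ones. The fall was -1.21 ± 0.22 (adjusted p = 0.00087) and was shared at -1.12, and at 0 h the DMSO array already differed by -1.92 from the untreated one. Adrm1, a ubiquitin receptor of the same particle, differed by -1.04 ± 0.21 with DMSO (adjusted p = 0.00153) and by -0.49 with prieurianin, which was undecided. Its 0 h difference was -1.73, and the call was lost without 24 h.

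Nr3c1, the glucocorticoid receptor, which binds the dexamethasone of common induction cocktails, was at 8.87, 8.77 and 8.38 in untreated cells, 7.11, 7.88 and 7.45 with DMSO and 7.71, 7.84 and 8.07 with prieurianin. The treated arrays were all below the untreated ones. The fall was -1.19 ± 0.28 (adjusted p = 0.00587), and prieurianin was undecided at -0.80 (adjusted p = 0.0706). The call was lost without 24 h, and the arrays differed by -1.23 at 0 h.

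Optn, the autophagy receptor optineurin, was at 9.50, 9.51 and 9.98 in untreated cells, 8.36, 8.72 and 8.72 with DMSO and 8.51, 8.69 and 9.21 with prieurianin. All treated arrays lay below all untreated ones. The fall was -1.07 ± 0.16 (adjusted p = 8.80e-05) and was shared at -0.86. Chd4, the ATPase of the NuRD chromatin complex (-1.07 ± 0.21), Atp8b2, a phospholipid flippase (-1.03 ± 0.17), and Zfp444, a zinc finger protein (-1.02 ± 0.20), were shared too, at -0.86, -0.84 and -0.64. At 0 h the differences of these 4 genes were -1.06, -1.51, -1.46 and -0.72. The call of Zfp444 was lost without 24 h, and those of Chd4, Optn, Atp8b2 and Zfp444 in the fit of 6 arrays.

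Lpp, a LIM-domain protein of focal adhesions, was at 11.39, 10.92 and 10.96 in untreated cells, 10.53, 9.50 and 9.99 with DMSO and 10.64, 11.56 and 11.38 with prieurianin. The DMSO arrays were the lowest at each time, and the prieurianin arrays were above the untreated ones at 36 and 48 h. At 0 h the DMSO array of Lpp already differed by -1.91 from the untreated one. The fall was -1.08 ± 0.33 (adjusted p = 0.0375), its call was lost without any one of the 3 times, and prieurianin minus DMSO (1.19) did not pass (adjusted p = 0.0795), so it was undecided. Of the others, Kdm8 and Bcas1 rested on 1 array each. Kdm8, a JmjC-domain protein (-1.86 ± 0.53), had 12.40 on the untreated array at 36 h against 6.82 to 8.13 on the other untreated and DMSO arrays. Il1rl2, the receptor for interleukin-36 (-1.21 ± 0.23), had 8.78 on the DMSO array at 36 h against 10.76 and 10.89 at the other DMSO times, and its untreated arrays were between 11.26 and 11.45. Without 36 h its difference was -0.52 and still passed, and its call was lost in the fits of 6 and of 9 arrays. Bcas1 (-1.02 ± 0.26) had 6.34 on the DMSO array at 48 h, and another of its probes differed by 0.48 in the opposite direction. Kdm8, Il1rl2 and Bcas1 were undecided, and the calls of Kdm8 and Bcas1 were lost without 36 h and without 48 h.

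Of the adipocyte programme Fabp4 rose, and most other genes did not pass the test. Of 17 adipocyte effectors tested, 1 rose and 0 fell (5.88% called against 9.42% of all genes), with a median difference of -0.04, the same as over all genes. Fabp4, the fatty acid-binding protein of fat cells, was at 9.29, 9.55 and 10.76 in untreated cells, 10.72, 11.71 and 12.53 with DMSO and 10.02, 10.47 and 12.45 with prieurianin. It was higher with DMSO at each time, and the groups overlapped only through the untreated array at 48 h, because the level climbed with time in every arm. The rise was 1.79 ± 0.32 (adjusted p = 0.000631), it was shared (1.11, adjusted p = 0.0290), and it held under every alternative setting run. It was also called at 0.25 to 3 h (1.14, adjusted p = 0.00708) and at 5 to 15 h (1.33, adjusted p = 0.00254). At 0 h the DMSO array was below the untreated one (-0.95). The untreated level was 12.06 at 0 h and lower at 0.25 h, when DMSO was at 11.85 and already above it.

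Adipoq, which encodes the adipokine adiponectin, climbed from 6.53 to 8.71 and 10.65 in untreated cells over 24, 36 and 48 h. With DMSO it was at 5.68, 7.47 and 10.40, and with prieurianin at 5.68, 5.86 and 9.36. DMSO was below untreated at each time, but the difference (-0.78 ± 0.63) did not pass (adjusted p = 0.461), except in the fit of the DMSO and untreated arrays alone (adjusted p = 0.0143). The central factors did not pass either: Pparg differed by -0.25 ± 0.26, Cebpa by 0.48 ± 0.45 and Cebpb by -0.33 ± 0.13 (adjusted p = 0.116). Cebpb, which starts the cascade, was below untreated on all 3 DMSO arrays, at 15.10, 14.86 and 15.00 against 15.38, 15.32 and 15.24. For 9.67% of all genes the DMSO arrays lay entirely below. At 0 h Cebpb already differed by -0.47 between the DMSO and untreated arrays. Its prieurianin minus untreated difference (-0.44) passed (adjusted p = 0.0365). The DMSO difference of Cebpb passed after median centring (adjusted p = 0.0362) and without 192 h. Median centring also moved the median of all genes to -0.32.

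The followed genes of lipid uptake, storage and synthesis did not pass either. Their differences were -0.25 ± 0.16 for Lpl (lipoprotein lipase), 0.01 ± 0.34 for Cd36 (a fatty acid transporter), 0.17 ± 0.67 for Plin1 (a lipid droplet coat protein), -0.63 ± 0.44 for Scd1 and -0.27 ± 0.47 for Fasn (fatty acid desaturation and synthesis). Scd1 passed in 1 alternative, the fit of the 3 arms at 5 to 48 h (adjusted p = 0.0281). A second, dimmer Lpl probe differed by 0.93. Dlk1, the preadipocyte inhibitor of differentiation, differed by -0.02 ± 0.18. Of 16 genes of fatty acid and triglyceride synthesis (6.25% called) Fads2, a fatty acid desaturase, fell (-0.49 ± 0.16). Of 18 genes of cholesterol synthesis and uptake (5.56% called, against 9.42% of all genes) Stard4, a sterol carrier, fell (-0.61 ± 0.19). Both were undecided in prieurianin, and both calls were lost without 24 h and without 36 h, that of Fads2 without 48 h too. Among 15 adipogenic transcription factors Nr3c1 was the one that passed (6.67% called against 9.42% of all genes). Of the 15 differences 2 (13.3%) were above 0, against 45.5% of all genes, and their median was -0.27.

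**Figure D2:**
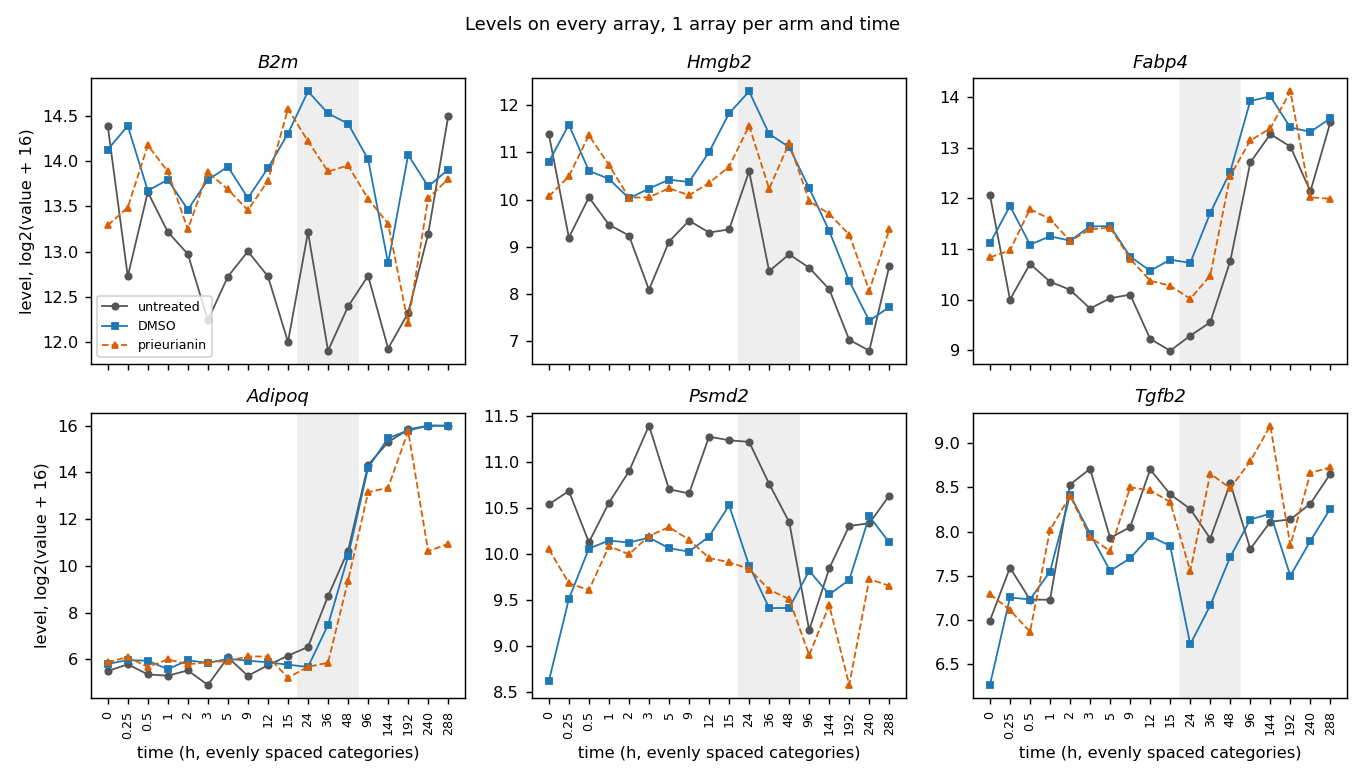
Level on the log2(value + 16) scale (y axis) on every array of the untreated (grey circles), DMSO (blue squares) and prieurianin (orange triangles) arms at the 18 times in h (x axis, evenly spaced categories), for 6 genes, with 24 to 48 h shaded and 1 array per point. Fabp4 with DMSO is above untreated at 24, 36 and 48 h (10.72 to 12.53 against 9.29 to 10.76), Adipoq climbs in every arm, Psmd2 is lower with DMSO already at 0 h, and Tgfb2 is low with DMSO alone at 36 and 48 h.

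Interferon and antigen-processing genes leaned upward with DMSO, while 2 of them passed the test. Interferons act through STAT and IRF factors on short promoter elements of these genes. Of 28 tested, B2m and Ifit1 rose and 0 fell, or 7.14% called against 9.42% of all genes, and 25 of 28 differences (89.3%) were above 0, against 45.5% of all genes. The list's median was 0.29 against -0.04 over all genes. After median centring the list's median was -0.04 against -0.32 over all genes, so its sign flipped with the scaling while it stayed above that of all genes. In the prieurianin arm 15 of the 28 were above 0, with a median of 0.05. At 0 h 8 of the 28 were above 0, with a median of -0.18, and at 5 to 15 h the median was 0.30 and 3 passed.

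B2m encodes the light chain of class I major histocompatibility molecules. It was at 13.21, 11.91 and 12.39 in untreated cells, 14.77, 14.52 and 14.41 with DMSO and 14.22, 13.88 and 13.95 with prieurianin. All treated arrays lay above all untreated ones. The rise was 2.06 ± 0.37 (adjusted p = 0.000702), and it was shared at 1.51. The untreated level was not low throughout the course, at 14.39 at 0 h and 14.49 at 288 h.

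Ifit1, an interferon-induced protein that binds viral RNA, was dim, at 6.14, 4.98 and 4.64 in untreated cells, 7.26, 7.53 and 6.45 with DMSO and 7.08, 5.73 and 5.68 with prieurianin. The DMSO arrays did not overlap with the untreated ones. The rise was 1.82 ± 0.45 (adjusted p = 0.0106), and it was undecided, since prieurianin minus untreated was 0.91 (adjusted p = 0.247) and prieurianin minus DMSO was -0.91 (adjusted p = 0.391). Its call was lost without 36 h and without the time block. Among the members that did not pass, picked after their values were seen, Ifit3 differed by 0.86 ± 0.78, Isg15 by 0.59 ± 0.62, Stat2 by 0.44 ± 0.32 and Irf1 by -0.10 ± 0.16.

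The promoters of the 2 called interferon genes are shown because both hold the core of the interferon-stimulated response element. The motif searched was GAAA, any 2 bases and GAAA again, on both strands, in RefSeq promoters of assembly GRCm38.p6 that run from 250 bases before to 50 after the gene start. It was found for 14 of the 24 list members that had a promoter in the table (58.3%) and for 1079 of 27025 genes (3.99%), or 1131 of 32851 promoters (3.44%). The sequences below are the 250 bases before each start, 5′ to 3′ on the + strand, with the matches in capitals. B2m lies at chr2:122147437-122147686 and has 1 match, and Ifit1 at chr19:34640639-34640888 has 2, both on the opposite strand. A match is a stretch of letters and no measure of binding.
B2m: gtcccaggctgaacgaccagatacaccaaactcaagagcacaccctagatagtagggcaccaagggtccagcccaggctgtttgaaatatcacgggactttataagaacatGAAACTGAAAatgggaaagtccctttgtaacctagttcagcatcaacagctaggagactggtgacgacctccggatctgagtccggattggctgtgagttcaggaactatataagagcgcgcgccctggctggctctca
Ifit1: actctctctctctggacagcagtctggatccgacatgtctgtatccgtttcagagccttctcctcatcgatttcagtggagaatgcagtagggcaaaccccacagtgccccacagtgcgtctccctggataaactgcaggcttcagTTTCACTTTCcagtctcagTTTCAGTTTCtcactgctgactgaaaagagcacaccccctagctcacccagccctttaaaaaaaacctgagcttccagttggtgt

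Mitochondrial genes included a few single rises. The respiratory chain feeds electrons from the citric acid cycle to oxygen and is built up as fat cells form. Of 25 genes of the respiratory chain and citric acid cycle, 4 rose (Ndufs1, Sdha, Suclg1 and Atp5a1) and 1 fell (Cox6a1), which is 20% called against 9.42% of all genes. The median was 0.10, which became -0.36 after median centring, below the -0.32 of all genes. Ndufs1, a core subunit of complex I, was at 9.87, 9.25 and 9.01 in untreated cells, 11.28, 11.32 and 10.84 with DMSO and 10.71, 10.41 and 10.64 with prieurianin. Its rise of 1.77 ± 0.27 (adjusted p = 0.000121) was shared at 1.21.

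Sdha, the catalytic subunit of complex II, was at 11.10, 10.87 and 10.53 in untreated cells, 12.32, 12.37 and 12.28 with DMSO and 12.16, 12.05 and 12.37 with prieurianin. For Ndufs1 and Sdha every treated array was above every untreated one, and both calls held under every alternative setting run. The rise of Sdha was 1.49 ± 0.25 (adjusted p = 0.000336) and was shared at 1.36. Suclg1, a subunit of succinyl-CoA ligase (0.71 ± 0.23), was shared. Atp5a1, a subunit of ATP synthase (0.64 ± 0.18), and Cox6a1, a subunit of complex IV named after its value was seen (-0.43 ± 0.13), were undecided. The calls of Suclg1 and Atp5a1 were lost without 24 h, without 36 h and after median centring, and that of Atp5a1 without 48 h as well.

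In fatty acid oxidation 2 of 16 genes rose and 0 fell (12.5% called against 9.42% of all genes). Cpt1a, which carries fatty acids to the mitochondrion, rose by 0.89 ± 0.21 and Hadh, an enzyme of beta-oxidation, by 0.79 ± 0.19, and both were shared. The calls were lost without 36 h and after median centring for both, without 48 h for Cpt1a and without 24 h for Hadh. A second Hadh probe differed by -0.43. Of 23 genes of glycolysis and hypoxia (4.35% called) Ldha, lactate dehydrogenase A, fell (-0.30 ± 0.10), undecided in prieurianin. It was saturated on 2 of the 3 untreated arrays, and its call was lost without 24 h and without 48 h.

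Called members of the lists for chromatin, replication and division made up 16.7%, 7.14% and 3.85% of those tested, against 9.42% of all genes. Of 18 DNA methylation and chromatin enzymes, Mbd2 and Ezh2 rose and Kdm6b fell. Mbd2, which binds methylated DNA, was at 9.69, 9.34 and 9.25 in untreated cells, 10.81, 10.88 and 10.87 with DMSO and 10.61, 10.46 and 10.93 with prieurianin. The untreated arrays were the 3 lowest, the rise of 1.42 ± 0.22 (adjusted p = 0.000168) was shared at 1.24, and its call held under every alternative setting run. Ezh2, the methyltransferase of Polycomb complex 2, rose by 0.62 ± 0.17, and Kdm6b, which removes the same mark, fell (-0.89 ± 0.23, with -1.58 at 0 h). Both were undecided, and their calls were lost without 36 h or 48 h and without 24 h, respectively. Ezh2 also lost its call after median centring, and both did in the values as deposited.

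Of 28 replication genes, Cdc45, a part of the replicative helicase (0.85 ± 0.28, undecided), and Pcna, the polymerase clamp (0.56 ± 0.13, shared), rose. Of 26 genes of G2 and mitosis Pttg1, the securin that holds back chromatid separation, rose (0.75 ± 0.23, undecided). Calls of Cdc45 and Pttg1 were lost without any one of the 3 times, and that of Pcna without 24 h. Cdc45, Pttg1 and Pcna also lost their calls after median centring and in the values as deposited. The medians of both lists (-0.07 and -0.07) lay near that of all genes, and 0 of 18 D cyclins, CDK inhibitors and p53 targets were called in limma (3 at an unadjusted p under 0.05). Of 18 ribosome biogenesis genes (11.1% called) Npm1, nucleophosmin, rose (0.56 ± 0.13) and Nip7, a factor of ribosomal RNA processing, fell (-0.62 ± 0.13). Both were shared, but their other probes differed by 0.02 for Npm1 and by 0.08 and 0.24 for Nip7. The calls were lost without 36 h, that of Nip7 without 24 h as well. Npm1 also lost its call after median centring and in the values as deposited.

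Among signalling genes the list of Wnt, TGF-β and BMP pathways, of which Wnt and TGF-β restrain adipogenesis in many settings, had 2 rises and 3 falls in 27 genes. That is 18.5% called against 9.42% of all genes. The ligand Tgfb2 was at 8.26, 7.92 and 8.55 in untreated cells, 6.72, 7.16 and 7.71 with DMSO and 7.55, 8.66 and 8.49 with prieurianin. The DMSO arrays were all below the untreated ones, whereas prieurianin lay below their range at 24 h alone. The fall of -1.04 ± 0.24 (adjusted p = 0.00542) was not shared: prieurianin differed from untreated by -0.01 and from DMSO by 1.03 (adjusted p = 0.0215). The fall and the difference from DMSO use the same 3 DMSO arrays, so a deviation of those arrays would appear in both. The call was lost without 24 h, and the arrays differed by -0.73 at 0 h.

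Tgfb1 (-0.54 ± 0.16), a second ligand, named here after its value was seen, and the Wnt receptor Fzd8 (-0.64 ± 0.18) also fell, and both were undecided. Sfrp1, a secreted Wnt antagonist, rose by 0.98 ± 0.25 (undecided), and the Wnt receptor Fzd1 rose by 0.60 ± 0.19 (shared). The calls of Sfrp1, Fzd8 and Fzd1 were each lost without 24 h and without 36 h or 48 h, and that of Fzd1 after median centring too. Of 23 immediate early genes (8.7% called), Klf10, a transcription factor induced by TGF-β, rose (1.14 ± 0.27, shared). Nr4a2, an orphan nuclear receptor, fell (-0.64 ± 0.19, undecided, with -1.03 at 0 h). Klf10 lost its call without 36 h, and Nr4a2 without 24 h and without 48 h. Both calls were also lost after median centring. Per1, a clock gene that glucocorticoids induce, fell (-0.75 ± 0.19) as the one called member of both the 15 glucocorticoid and cAMP response genes (6.67%) and the 14 clock genes (7.14%). It was undecided in prieurianin (-0.58, adjusted p = 0.0621) and lost its call without 24 h and without 36 h.

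The lists of ER stress, matrix and actin cytoskeleton genes each held 1 large rise at most. Tmsb4x and Bet1, described above, were not called members of these lists. Edem1, which directs misfolded glycoproteins to degradation, was at 8.60, 8.37 and 7.96 in untreated cells, 9.62, 10.01 and 10.08 with DMSO and 9.96, 10.29 and 10.37 with prieurianin. Its rise of 1.59 ± 0.24 (adjusted p = 0.000141) was shared at 1.90. Herpud1, which acts in the same degradation pathway, fell (-0.71 ± 0.17) and was shared, with -0.80 at 0 h. They were the 2 called of 25 genes of ER stress and amino acid response (8% against 9.42% of all genes). The call of Herpud1 was lost without 36 h.

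Actg1, cytoplasmic γ-actin, was at 13.05, 12.26 and 12.32 in untreated cells, 13.83 to 14.14 with DMSO and 14.57, 14.36 and 14.71 with prieurianin. Its rise of 1.45 ± 0.26 (adjusted p = 0.000726) was shared at 2.00. It was the 1 called of 20 genes of the actin cytoskeleton and of SRF or YAP targets (5% against 9.42% of all genes, median -0.11). In prieurianin 15 of the 20 were called higher (median 1.54), against 5.28% of all genes. In 30 matrix genes Col1a2 (0.65 ± 0.18) and Col3a1 (0.46 ± 0.15), chains of fibrillar collagens, were called higher, both undecided, beside a list median of -0.19. That is 6.67% called against 9.42% of all genes. Col3a1 was saturated on 1 untreated and 1 DMSO array, and a second probe differed by -0.70. The call of Col1a2 was lost without 24 h and without 36 h, that of Col3a1 without 24 h and without 48 h, and neither passed after median centring. Among 18 preadipocyte and progenitor genes (11.1% called), Nr2f2, a nuclear receptor of mesenchymal progenitors, rose (1.25 ± 0.22, adjusted p = 0.000493). Sox9, a progenitor factor, fell (-0.52 ± 0.14). Both were shared, and the call of Sox9 was lost without 36 h and without 48 h.

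Lists tied to the handling of solvents and stress were short and gave 2 calls in all beside 9.42% called over all genes, too few to read as a result about them. None of 11 heat shock genes, 11 genes of methionine sulfoxide and sulfur metabolism, 17 xenobiotic enzymes and transporters or 15 genes of insulin-like growth factor and insulin signalling passed in limma (1, 2, 1 and 0 at an unadjusted p under 0.05), while 1 of 24 NRF2 targets and glutathione genes did. That gene, Ugdh, which makes UDP-glucuronate, rose by 1.34 ± 0.34 (shared). Its call was lost without 36 h, without 48 h and after median centring. Of 11 genes of water, osmotic and urea transport Slc38a2, an amino acid transporter that hypertonic medium induces, rose by 1.23 ± 0.24 (adjusted p = 0.00156) and was shared. Its call was lost without 36 h and after median centring. Of 23 inflammatory and NF-κB target genes Nfkb2, an NF-κB subunit precursor, was called higher (0.41 ± 0.10, undecided), a sign that turned after median centring (-0.049), and it lost its call without 48 h. Col2a1, a cartilage collagen, was the 1 called gene of the marker lists (0.78 ± 0.25, undecided), and the call was lost without 24 h and after median centring. Over all lists 41 of 574 genes (7.14%) were called, against 9.42% of all genes tested, of which 20 were shared, 20 undecided and 1 not shared.

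**Figure D3:**
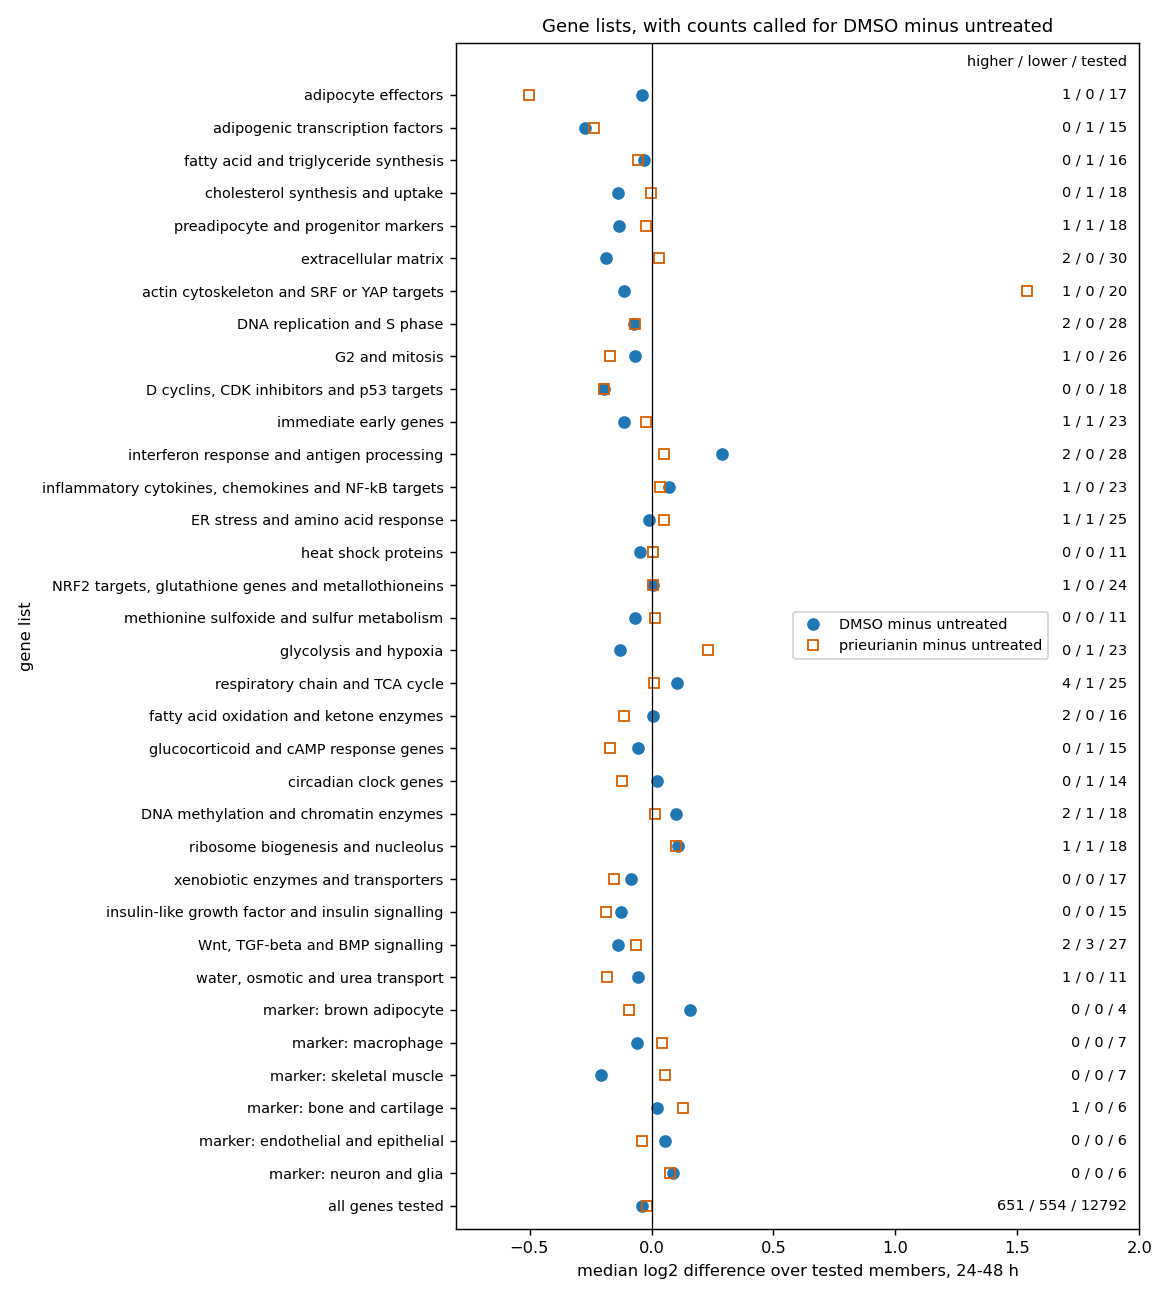
Median log2 difference from untreated at 24 to 48 h over the tested genes (x axis, log2 units) of each gene list (y axis), for DMSO (filled circles) and prieurianin (open squares), with the number of genes called higher and lower with DMSO and the number tested at the right. Most DMSO medians lie near the -0.04 of all genes; the interferon list lies at 0.29, a sign that turns to -0.04 after median centring, and the actin list lies at -0.11 with DMSO against 1.54 with prieurianin.

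By the rule 15 of the 1205 calls were not shared by prieurianin, while 639 were undecided. The call and the rule use the same 3 DMSO arrays, so a deviation of those arrays would give both. The count of 15 became 52 without 192 h, 30 after median centring, 9 without 36 h, 3 in the 9 arrays of the window and 0 in the values as deposited. The 15 genes, singled out after their values were seen, were the rises of Odf3l1 and Smad3 and the falls of Atg5, Cbx2, Cfl1, Clip2, Dcun1d4, Flrt3, Gatad2a, Manea, Mapre3, Pycr1, Tgfb2, Zdhhc24 and Zdhhc5. In all, 154 genes (1.2%) differed between prieurianin and DMSO. Cfl1, the actin-severing protein cofilin, was at 8.54, 8.42 and 8.14 in untreated cells, 7.49, 8.15 and 7.15 with DMSO and 8.43, 8.91 and 8.51 with prieurianin. The DMSO array was the lowest of the 3 arms at each time, though at 36 h it just reached the range of the untreated arrays. It differed by -0.77 ± 0.16 from untreated, and prieurianin was higher than DMSO by 1.02 (adjusted p = 0.000265).

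Zdhhc5, a palmitoyl transferase of the plasma membrane, was at 8.57, 8.69 and 8.32 in untreated cells, 7.70, 8.30 and 7.23 with DMSO and 8.52, 8.74 and 8.42 with prieurianin. The 3 DMSO arrays were the lowest, and the prieurianin arrays lay among the untreated ones or just above. It fell with DMSO (-0.78 ± 0.14, adjusted p = 0.000714). Smad3, which carries the TGF-β signal to the nucleus, was at 10.91, 11.05 and 10.89 in untreated cells, 11.23, 11.59 and 11.32 with DMSO and 10.88, 10.96 and 10.79 with prieurianin, and rose with DMSO by 0.43 ± 0.13 (adjusted p = 0.0337). Odf3l1 rested on the DMSO array at 24 h, which was at 9.65 against 7.53 to 8.54 on the other untreated and DMSO arrays.

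The differences were not confined to 24 to 48 h. Of the 651 rises, 481 (73.9%) were also called at 5 to 15 h, where they made up 70.1% of the 686 genes (5.36%) called higher. Of the 554 falls, 138 (24.9%) were also called then, 46.3% of 298 (2.33%). At 96 to 288 h 247 of the rises and 11 of the falls were called, beside 407 higher (3.18%) and 71 lower (0.555%) in all. At 0.25 to 3 h 296 and 29 were called, beside 410 higher (3.21%) and 56 lower (0.438%). No gene was called in opposite directions. In limma tests of the difference between windows no gene passed, with 501 genes (3.92%) at an unadjusted p under 0.05 against 5 to 15 h, 1411 (11%) against 0.25 to 3 h and 2070 (16.2%) against 96 to 288 h. With time as a random block 1 such test passed, and without 48 h 2 did, counted over genes and window contrasts together.

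The rises and falls also differed in where the 0 h arrays stood, which had no treatment time and were not in the fit. Of the falls 90.4% were already below 0 between the DMSO and untreated arrays at 0 h, with a median of -0.42, and of the rises 71.4% were above 0, with a median of 0.17, against 55.2% of all genes. At 0.5 h the medians of rises and falls were 0.04 and 0.01, and at 24, 36 and 48 h they were 0.63, 0.93 and 0.80 for the rises and -0.64, -0.61 and -0.46 for the falls. Over 2-fold apart between the DMSO and untreated arrays were 292 genes (2.28%) at 0 h. The 24 h arrays had 1071 such genes (8.37%), the 36 h arrays 753 (5.89%) and the 48 h arrays 637 (4.98%). The part of the 0 h difference in the later falls was not tested.

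**Figure D4:**
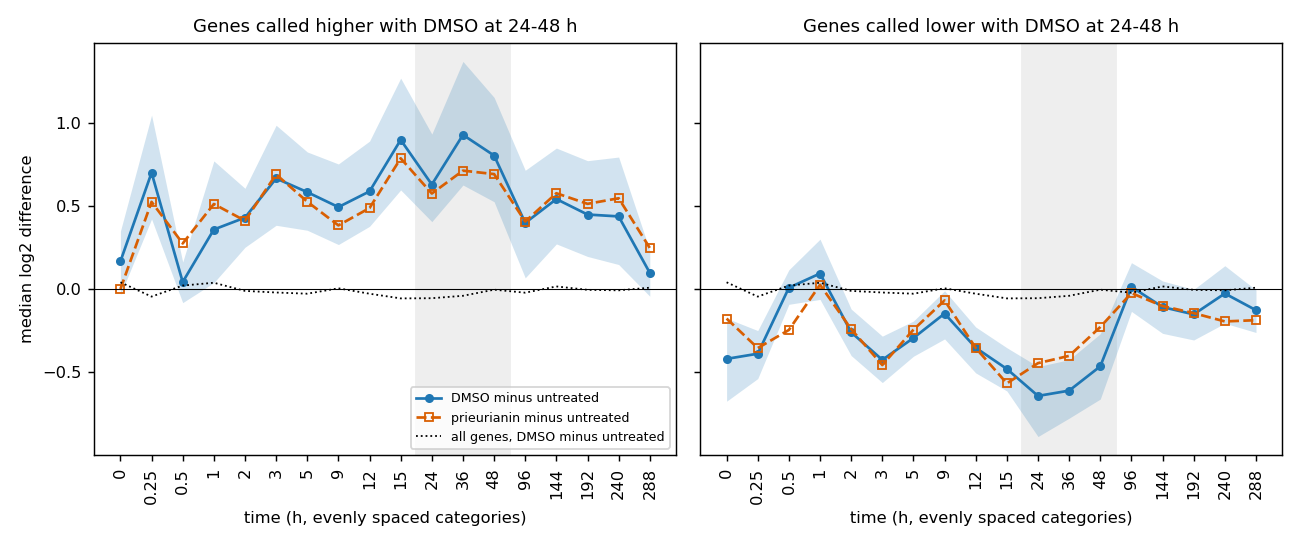
Median log2 difference from the untreated array of the same time (y axis, log2 units) over the 651 genes called higher (left) and the 554 called lower (right) with DMSO at 24 to 48 h, at each of the 18 times in h (x axis, evenly spaced categories). Blue circles are DMSO with the quartile range over genes shaded, orange squares are prieurianin, the dotted line is DMSO over all genes, and the grey band marks 24 to 48 h, where the genes were chosen. The rises stay above 0 at every time (0.04 to 0.93), and the falls are at -0.42 at 0 h, near 0 at 0.5 and 1 h, and near 0 again at 96 h.

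Where a called gene had a further probe above the filter, that probe often did not follow. For the rises 54 of 166 further probes (32.5%) had the same sign, with a median difference of -0.17, when 34.7% of all further probes were above 0. For the falls 102 of 150 (68%) had the same sign, with a median of -0.31, when 65.3% of all further probes were below 0. The further probes of the rises were dimmer (median level 8.70 against 10.95 for the probes tested). Whether they read the same transcripts was not tested.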

How the data were processed

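Total RNA of 3T3-L1 cells was amplified, labelled with Cy5 and hybridised to single-colour Mouse OneArray chips, per the labels' protocols. No label states a unit; the deposited numbers, from -83 to 65497, were read as intensities on a linear scale, and scanner, scaling and background handling are not given in the sources used here. The 54 arrays were quantile normalised, values below 0 were raised to 0, and log2(value + 16) was computed. Of 29922 probes, 21020 carried 1 gene symbol and none several; symbols were updated through a RefSeq table of GRCm38.p6. A gene was read through the probe with the highest mean, and genes with a mean above 6.07, the lower quartile, were kept (12792 of 16637). The number of arrays limits the precision; 93 to 176 probes per array were saturated.

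limma 3.58.1 in R 4.3.3 was fitted to 51 arrays (26 residual degrees of freedom) with Benjamini-Hochberg adjustment over all genes tested and a threshold of 0.05. The pairing of arms by time comes from the sample titles. Members, the 34 gene lists and tests were chosen with earlier results of these data known. Named genes were the 12 largest rises and 12 largest falls among calls with the same sign at 3 of 3 times and no clone name, up to 4 called members per list, and 11 followed adipocyte genes. Alternatives changed the scaling, pseudocount, filter, probe choice, arrays in the fit and time block, and left out each time.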

Additional observations from a re-analysis of the deposited data

Results flagged for a closer look

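Probes without a gene symbol, which the comparisons above did not use, also separated the arms at 24 to 48 h. Of 4609 such probes above the filter, 291 (6.31%) were called between DMSO and untreated, 140 higher and 151 lower. The prieurianin arm shared 80 of these, 3 were not shared, and the others were undecided.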

How the results depend on the processing

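Among the called genes named above, Nfkb2 turned to -0.049 after median centring and Col3a1 to -0.12 when the probes of a gene were averaged; no other of the rule's named calls turned in the settings run. The cause was not tested. The number of called genes was 437 in the values as deposited, 88 in the 6 arrays alone, 323 in the 9 arrays of the window and 546 without the time block that pairs the arms; leaving out 1 of the 3 times gave 491 to 1001. It was 1649 with DMSO and untreated arrays alone and 1620 without 192 h. Shared genes numbered 115 after median centring, 269 as deposited, 182 in the 9 arrays and 255 without the time block, and 147 to 333 leaving out 1 time. Called list genes (41) numbered 17 as deposited, 13 in 6 arrays, 22 in 9 arrays, 16 without the time block, 78 with DMSO and untreated arrays alone, 71 without 192 h, and 19 to 35 leaving out 1 time. Of the 24 largest differences 11 were called in the 6 arrays, where 2 residual degrees of freedom remain. Tests between windows that passed, counted over genes and window contrasts together, numbered 0, but 1 with time as a random block and 0 to 2 leaving out 1 time. The calls that held in every setting run were those of Tmsb4x, Hmgb2, Cwc15, B2m, Acap2, Zc3h7b, Atp6v1h, Psmd2, Fabp4, Actg1, Edem1, Ndufs1, Sdha and Mbd2. Smaller and larger pseudocounts gave 1200 and 1261 calls, and filters from none to the median 1100 and 1115. One array per arm and time limits every value, and bright probes are bounded by saturation.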
